A study of Mus musculus with 3 samples.

Results

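Platelet and megakaryocyte genes were followed in G-MDSCs (granulocytic myeloid-derived suppressor cells, a neutrophil-like population that gathers in tumor-bearing hosts) from the peripheral blood of mice. The set holds 31 genes of the 26655 in the expression values. It was drawn up by gene symbol, through the GENCODE M21 names of the Ensembl genes, and covers platelet glycoproteins, granule proteins, signaling proteins and cytoskeleton proteins. All 31 symbols were found, and 25 genes reached 1 FPKM in at least 1 library. FPKM is the number of sequenced fragments per kilobase of transcript and scaled to the number mapped in the library, so levels can be set side by side between genes.

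The study sequenced 1 library of G-MDSC RNA from normal C57BL/6J mice, 1 from C57BL/6J mice that had borne tumors for 2 weeks (2Ws) and 1 from such mice at 3 weeks (3Ws). Tumors were grown under the skin from B16F10 cells, a mouse melanoma line, in mice of 8 to 10 weeks of age. The cells were labelled as positive for CD11b and Gr1 and were taken on magnetic columns with an antibody to Ly6G. The number of mice behind each library is not given in the sources used here, and the tumor time, given in months in some labels, was read in weeks as in the sample descriptions.

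With 1 library per condition, no difference below has a replicate check. P-values were formed only for an alternative rule, an exact binomial test on reads, and they cover counting error alone. Intervals are exact 95% Clopper-Pearson intervals of the ratio of reads, each read number taken relative to its library's total. They cover counting error between these libraries only, and reads copied by PCR are not independent molecules. The comparisons of 2Ws and of 3Ws with normal mice share the normal library.

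Platelets are cell fragments without a nucleus that bud from megakaryocytes and carry RNA made there. They seal vessel walls through adhesion receptors, release chemokines and clotting proteins from granules, and bind readily to neutrophils in blood. Several genes of the set are not limited to platelets: 19 of the 31 are also known in other cells such as monocytes, neutrophils, endothelium or lymphocytes, and 12 are not on that list. Absence from the list does not show that a gene is limited to platelets. In bulk RNA, fewer cells of a type and less RNA per cell cannot be told apart.

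In megakaryocytes many of these genes are driven by GATA and ETS transcription factors acting at their promoters, so promoter sequences are shown for Gp1ba, Gp5 and Gp9 of the glycoprotein Ib-IX-V complex, the receptor for von Willebrand factor, and for Pf4, the platelet chemokine CXCL4. That of Gp1bb, the fourth gene of the complex, is not shown because its window lies in an exon of the gene Sept5. Each run is the 250 bases before the RefSeq start on GRCm38.p6, 5′ to 3′ on the strand of the gene, and capitals mark GATA words (the letters GATA with an A or T before and an A or G after) and ETS words (the letters GGAAG with an A or C before) on either strand. The windows are chr11:70638872-70639121 on the plus strand for Gp1ba, chr16:30310782-30311031 on the minus strand for Gp5, chr6:87777820-87778069 on the plus strand for Gp9 and chr5:90772185-90772434 on the plus strand for Pf4.
Gp1ba: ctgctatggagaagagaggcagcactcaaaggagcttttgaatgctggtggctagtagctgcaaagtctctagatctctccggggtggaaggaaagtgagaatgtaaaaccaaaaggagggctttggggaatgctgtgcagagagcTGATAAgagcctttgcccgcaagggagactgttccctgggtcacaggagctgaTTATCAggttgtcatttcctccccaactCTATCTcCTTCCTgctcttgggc
Gp5: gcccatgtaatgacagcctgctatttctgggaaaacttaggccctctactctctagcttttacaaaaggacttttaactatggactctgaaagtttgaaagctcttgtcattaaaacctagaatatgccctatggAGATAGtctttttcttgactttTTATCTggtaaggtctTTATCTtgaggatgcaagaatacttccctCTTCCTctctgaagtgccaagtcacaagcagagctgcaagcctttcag
Gp9: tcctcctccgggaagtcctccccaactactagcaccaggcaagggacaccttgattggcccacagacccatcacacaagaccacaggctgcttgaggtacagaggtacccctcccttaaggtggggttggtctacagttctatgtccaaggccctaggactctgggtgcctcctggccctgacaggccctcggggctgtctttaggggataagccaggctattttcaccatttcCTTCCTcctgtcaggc
Pf4: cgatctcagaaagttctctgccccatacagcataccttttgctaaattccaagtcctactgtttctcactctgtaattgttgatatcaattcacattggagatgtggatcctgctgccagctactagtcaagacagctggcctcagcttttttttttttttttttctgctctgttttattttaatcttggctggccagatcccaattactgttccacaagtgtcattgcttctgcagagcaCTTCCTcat

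Gp1ba held GATA words at positions -104, -51 and -23 from its start and an ETS word at -16. Gp5 held GATA words at -115, -93 and -77 and an ETS word at -48. These were the 2 members with 3 GATA words. Gp9 and Pf4 each held an ETS word before the start, at -16 and -9. RefSeq promoters were matched for 25 members, and 6 (Rgs18, Itgb3, Gng11, Vwf, Rab27b and Thbs1) were not matched. In windows from 250 bases before to 50 after the start, a GATA word was present in 10 of the 25 members (40%) and in 33.0% of 27025 genes. An ETS word was present in 14 of the 25 (56%) and in 49.8% of all genes. Both shares of members were near those of all genes, and the small excess was not tested. An ETS word can share its last bases with the start of a GATA word, which did not occur in the printed runs, and a match is a stretch of letters, not a shown binding site.

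As a set, the members were somewhat above normal mice at 2Ws and below them at 3Ws. Their FPKM summed to 417.1, 490.0 and 229.1 in the normal, 2Ws and 3Ws libraries, which was 0.132%, 0.157% and 0.0714% of all FPKM of the library. The 12 members not on the list of other cells summed to 117, 142 and 28.5 FPKM in that order. The other 19 summed to 300 FPKM, 348 and 201. Cd9, Thbs1 and Pf4 together made up 54.3%, 48.3% and 49.0% of the sum over all members. The 2Ws library was the highest of the 3 for 26 members, beside 39.2% of the 23296 genes with a read in any library. The 3Ws library was the lowest for 28 members, beside 51.9% of these genes. The exceptions to the low level at 3Ws were P2ry12 and Rgs18, lowest in normal mice, and Sparc, lowest at 2Ws.

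**Figure D1:**
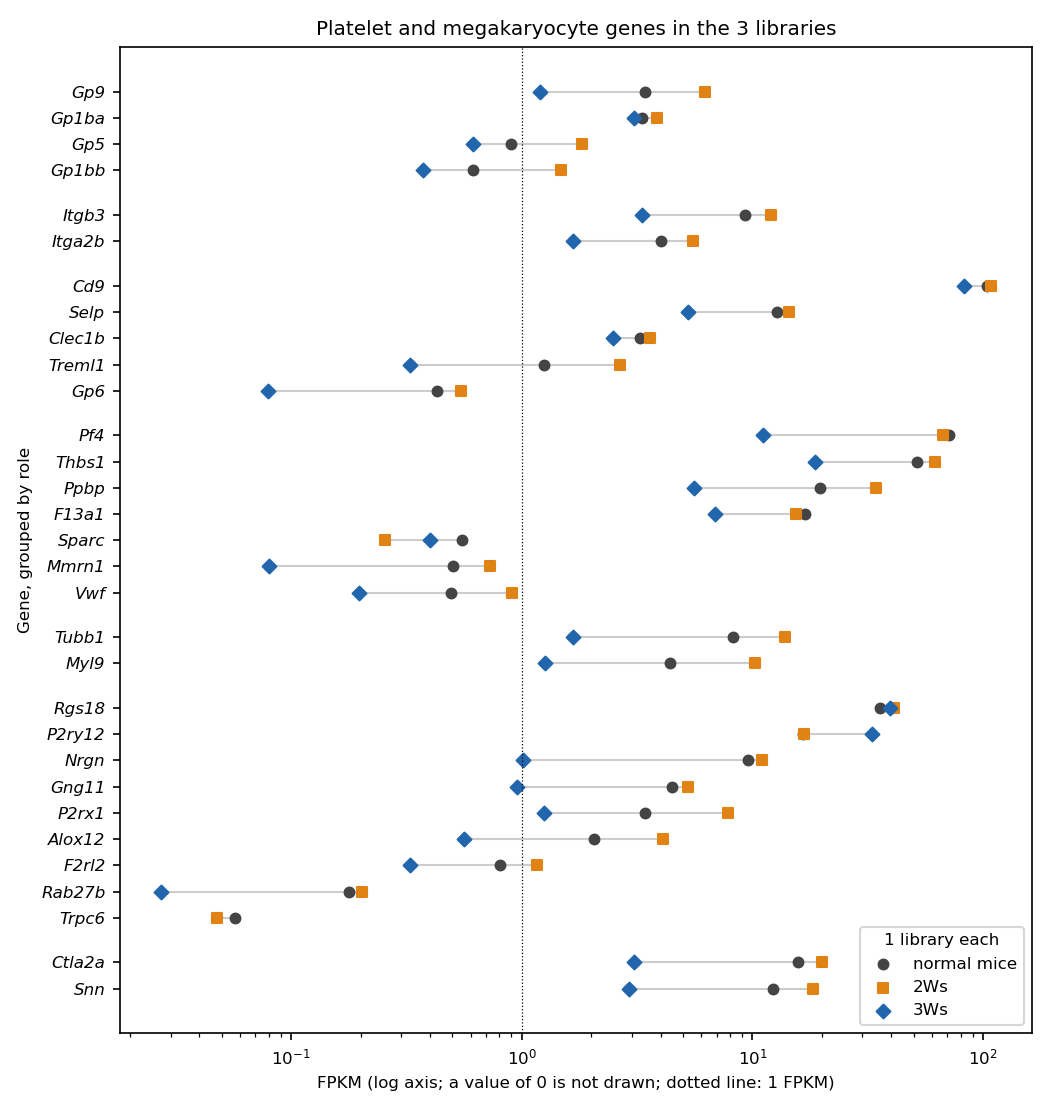
Level of each of the 31 genes in FPKM (log axis) in the libraries of normal mice (circles), 2Ws (squares) and 3Ws (diamonds), grouped by role, with 1 library per condition and thus no error bars. The diamond is the leftmost mark for 27 of the genes drawn at all 3 points, P2ry12 is the gene with its diamond to the right, its circle at 16.6 FPKM lies behind its square at 16.8, and Trpc6 at 3Ws (0 FPKM) is not drawn.

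Counts were read against those over all genes. Log2 ratios were formed on FPKM + 1, which understates the change of genes near or below 1 FPKM, and a gene was counted when it had at least 1 FPKM in 1 of the 2 libraries and differed by at least 2-fold. At 2Ws against normal mice, 1 of the 31 members (Myl9) was higher by this rule, beside 1.29% of the 11269 genes compared, and 0 were lower, beside 1.22%. At 3Ws against normal mice, 13 of 31 were lower, beside 7.89% of 11103 genes, and 0 were higher, beside 2.6%. At 3Ws against 2Ws, 17 of 31 were lower, beside 7.37% of 11119 genes, and 0 were higher, beside 2%. The levels allowed a call for 25, 22 and 25 members in these comparisons. The 13 genes were Ctla2a, F13a1, Gng11, Gp9, Itgb3, Myl9, Nrgn, Pf4, Ppbp, Selp, Snn, Thbs1 and Tubb1, and the 17 were these with Alox12, Itga2b, P2rx1 and Treml1. Over all genes the calls at 3Ws against normal mice were 289 higher and 876 lower, or 416 and 553 after centring on the median gene, and against 2Ws 222 higher and 820 lower, or 301 and 554 after centring. Relative to Actb, the cytoskeletal actin often used as a reference, they were 336 and 775 against normal mice.

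Nearest to the 2-fold limit were Gp9 at 3Ws against normal mice, with a log2 ratio of -1.004, and just short of it P2rx1 at -0.98 and Alox12 at -0.97. P2rx1 was just short of it also at 2Ws, at 0.998, and P2ry12 was short of it in the other direction at 3Ws, at 0.94. The median log2 ratio over the 31 members was 0.26 between 2Ws and normal mice, -0.91 between 3Ws and normal mice, and -1.29 between 3Ws and 2Ws. Over all genes compared, the medians were 0.00045, -0.24 and -0.21. The 12 members not on the list of other cells had medians of 0.48, -0.60 and -1.07, and the other 19 had medians of 0.20, -0.98 and -1.30. As ratios of reads, without the added 1, the median member was 1.27-fold higher at 2Ws, 2.80-fold lower at 3Ws, and 5.22-fold lower at 3Ws than at 2Ws. Both parts of the list thus moved the same way in each comparison.

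The interval of the read ratio gives a rule without a lower limit on level. At 2Ws it lay above 1 for 18 of 31 members, beside 11.1% of 22425 genes, and below 1 for 2 (F13a1 and Sparc), beside 10.9%. At 3Ws against normal mice it lay below 1 for 24, beside 34.5% of 22132 genes, and above 1 for 2 (P2ry12 and Rgs18), beside 9.51%. At 3Ws against 2Ws it lay below 1 for 27, beside 34% of 21857 genes, and above 1 for 1 (P2ry12), beside 8.36%. For 15 members it lay above 1 at 2Ws and below 1 at 3Ws, beside 3.52% of the 23296 genes with a read in any library. For 8 members (F2rl2, Gng11, Nrgn, Rab27b, Pf4, Cd9, Clec1b and Gp6) it included 1 at 2Ws and lay below 1 at 3Ws, beside 20.8% of these genes.

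**Figure D2:**
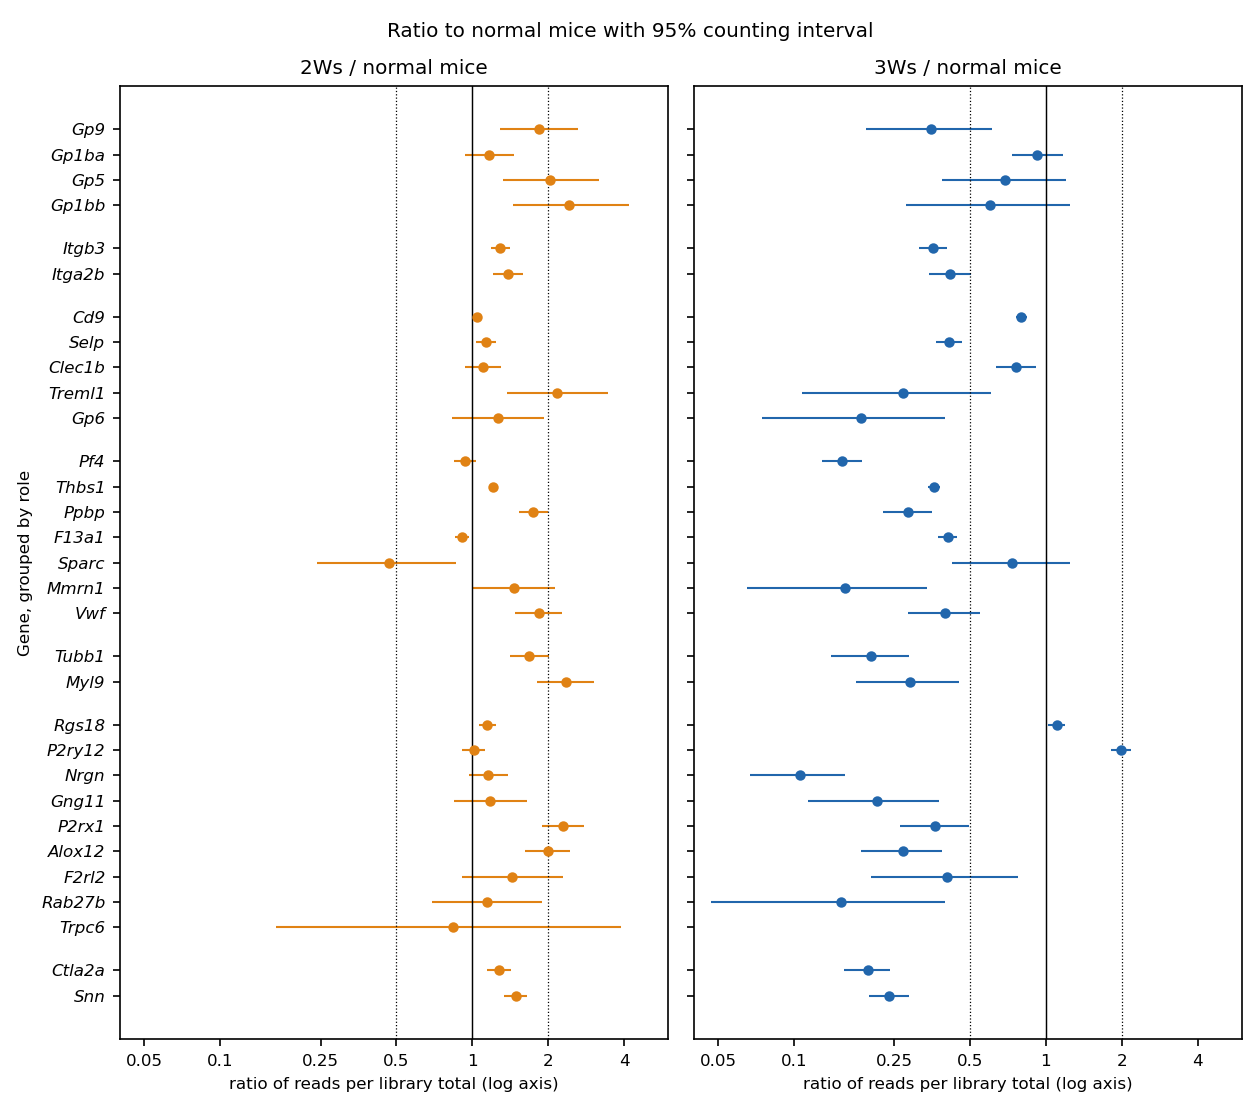
Ratio of reads to normal mice (log axis) for each gene at 2Ws (left) and 3Ws (right), with the exact 95% counting interval as a bar, a solid line at 1 and dotted lines at 2-fold. Most points at 2Ws lie between 1 and 2, while at 3Ws 29 of the 31 genes have a ratio below 1, beside 67.2% of all genes with a read (Trpc6, with 0 reads, is not drawn there), with Nrgn lowest and P2ry12 highest.

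The members are given by role, with gene positions on GRCm38 as annotated in GENCODE M21, and the adhesion receptors come first. Gp1ba, the chain of the glycoprotein Ib-IX-V complex that binds von Willebrand factor (chr11:70639122-70642036), stood at 3.31, 3.87 and 3.06 FPKM in the normal, 2Ws and 3Ws libraries, from 156, 174 and 142 reads. Its ratio was 1.17 at 2Ws (interval 0.935 to 1.46) and it was 1.08-fold lower at 3Ws (0.857 to 1.37), so neither difference from normal mice exceeded counting error. Gp9, the small chain needed to bring the complex to the surface, stood at 3.41, 6.24 and 1.20 FPKM, from 52, 91 and 18 reads. It was 1.83-fold higher at 2Ws (1.29 to 2.63) and 2.85-fold lower at 3Ws (1.64 to 5.17). The level of Gp1ba relative to Gp9 was 0.972, 0.620 and 2.56 in that order, so these partners of a complex did not keep their proportion.

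Gp5, which associates with the complex and is cut by thrombin, stood at 0.894, 1.82 and 0.613 FPKM, from about 34, 66 and 23 reads. It was 2.03-fold higher at 2Ws (1.32 to 3.17), while the interval at 3Ws included 1 (1.46-fold lower, 0.834 to 2.59). Gp1bb, the disulfide-linked partner of Gp1ba, stood at 0.614, 1.48 and 0.374 FPKM. Its values are uncertain, since 91.1% of its exonic bases also belong to Sept5 on the same strand, a gene at 12.1, 11.7 and 7.98 FPKM. All 4 genes of the complex were below 10 FPKM in each library.

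The fibrinogen receptor, through which platelets aggregate, is a pair of Itga2b (integrin αIIb, chr11:102453297-102470122) and Itgb3 (integrin β3). Itga2b stood at 4.01, 5.54 and 1.68 FPKM in the normal, 2Ws and 3Ws libraries, from 379, 500 and 156 reads. It was 1.38-fold higher at 2Ws (1.21 to 1.58) and 2.39-fold lower at 3Ws (1.98 to 2.90). Itgb3, which also pairs with another α chain in other cells, stood at 9.31, 12.001 and 3.32 FPKM, from 952, 1172 and 335 reads. It was 1.29-fold higher at 2Ws (1.18 to 1.41) and 2.80-fold lower at 3Ws (2.47 to 3.18). Unlike Gp1ba and Gp9, the chains of this pair kept a similar proportion, with Itgb3 at 2.32, 2.17 and 1.98 times the FPKM of Itga2b.

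Among the other surface proteins, the collagen receptor Gp6 stayed below 1 FPKM. It stood at 0.430, 0.543 and 0.0794 FPKM in the normal, 2Ws and 3Ws libraries, from 44, 53 and 8 reads, and was 5.42-fold lower at 3Ws than in normal mice (2.52 to 13.3). Treml1, a receptor of platelet α granules, stood at 1.25, 2.66 and 0.328 FPKM, from about 30, 62 and 8 reads. It was 2.16-fold higher at 2Ws (1.38 to 3.47) and 3.70-fold lower at 3Ws (1.66 to 9.33). Both genes thus rest on 8 reads at 3Ws, which the width of their intervals shows.

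Clec1b, the podoplanin receptor CLEC-2, moved less. It stood at 3.26, 3.60 and 2.48 FPKM, from 288, 304 and 216 reads, and was 1.31-fold lower at 3Ws than in normal mice (1.10 to 1.57). It is on the list of 12, and 3.61% of its exonic bases are shared with Clec9a. Selp, P-selectin, which tethers activated platelets and endothelium to leukocytes, stood at 12.7, 14.4 and 5.27 FPKM, from 973, 1053 and 397 reads. It was 1.13-fold higher at 2Ws (1.04 to 1.24) and 2.42-fold lower at 3Ws (2.15 to 2.72). Cd9, a tetraspanin abundant on platelets and also found on many leukocytes, was the most highly expressed member at 103, 108 and 82.5 FPKM, and was 1.25-fold lower at 3Ws (1.19 to 1.32).

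Granule chemokines lie side by side on chromosome 5. Pf4 (chr5:90772435-90773383) stood at 71.4, 66.8 and 11.1 FPKM in the normal, 2Ws and 3Ws libraries, from 892, 797 and 137 reads. Its level at 2Ws was within counting error of that in normal mice (ratio 0.935, 0.849 to 1.03), and it was 6.42-fold lower at 3Ws (5.36 to 7.74). Ppbp, the neighbouring chemokine precursor CXCL7 (chr5:90768518-90770063), stood at 19.6, 34.2 and 5.57 FPKM, from 368, 613 and 103 reads. Unlike Pf4 it was higher at 2Ws, by 1.74-fold (1.53 to 1.99), and it was 3.52-fold lower at 3Ws (2.82 to 4.42). The level of Pf4 relative to Ppbp was accordingly 3.64, 1.95 and 2.00.

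Of the other secreted proteins, Thbs1 had the most reads. Thbs1, thrombospondin 1 of α granules and also a product of monocytes, stood at 51.6, 62.1 and 18.6 FPKM, from 5429, 6238 and 1928 reads. It was 1.20-fold higher at 2Ws (1.16 to 1.25) and 2.78-fold lower at 3Ws (2.63 to 2.92). F13a1, the clotting factor subunit that cross-links fibrin and is also made by monocytes and macrophages, stood at 16.9, 15.4 and 6.89 FPKM. It was the only member with an interval below 1 at both times, 1.10-fold lower at 2Ws (1.03 to 1.17) and 2.46-fold lower at 3Ws (2.26 to 2.67).

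Vwf, Mmrn1 and Sparc were each below 1 FPKM in all 3 libraries. Vwf, von Willebrand factor, which bridges collagen and Gp1ba, stood at 0.496, 0.910 and 0.197 FPKM, from 138, 242 and 54 reads, and was 2.52-fold lower at 3Ws (1.83 to 3.52). Mmrn1, multimerin 1, the carrier of factor V in α granules, had 51, 71 and 8 reads, and at 3Ws was 6.28-fold below normal mice (2.96 to 15.3). Sparc, a collagen-binding protein of α granules and of connective tissue, went the other way at 2Ws. It had 36, 16 and 26 reads and was 2.15-fold lower at 2Ws (1.16 to 4.15), with an interval that included 1 at 3Ws.

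Both cytoskeleton genes were higher at 2Ws and lower at 3Ws. Tubb1, the β1-tubulin of the platelet marginal band (chr2:174450695-174457882), stood at 8.21, 13.8 and 1.67 FPKM, from 200, 322 and 40 reads. It was 1.69-fold higher at 2Ws (1.41 to 2.02), 4.93-fold lower at 3Ws (3.50 to 7.10) and 8.31-fold lower at 3Ws than at 2Ws (5.97 to 11.8). Myl9, a myosin regulatory light chain also found in smooth muscle (chr2:156775420-156781658), stood at 4.37, 10.2 and 1.26 FPKM, from 88, 197 and 25 reads. It was the member counted as at least 2-fold higher at 2Ws, by 2.34-fold (1.81 to 3.05), and it was 3.47-fold lower at 3Ws (2.204 to 5.65) and 8.13-fold lower at 3Ws than at 2Ws (5.35 to 12.9).

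Receptors for platelet agonists did not move together. P2ry12, the G protein-coupled ADP receptor that is the target of clopidogrel (chr3:59216272-59262871), stood at 16.6, 16.8 and 32.9 FPKM in the normal, 2Ws and 3Ws libraries, from 732, 708 and 1429 reads. It was 1.98-fold higher at 3Ws (1.81 to 2.17) and was the member that ran against the rest, being the highest in the 3Ws library. On FPKM + 1 it stayed short of the 2-fold limit and passed it after centring on the median gene or relative to Actb. P2rx1, the ATP-gated channel of platelets and also of neutrophils, stood at 3.43, 7.85 and 1.25 FPKM, from 156, 341 and 56 reads. It was 2.29-fold higher at 2Ws (1.89 to 2.78) and 2.75-fold lower at 3Ws (2.01 to 3.80). P2ry12 and P2rx1, which both sense purine nucleotides, thus went opposite ways at 3Ws.

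F2rl2, the thrombin cofactor receptor PAR3 of mouse platelets, stood at 0.807, 1.16 and 0.328 FPKM, from 35, 48 and 14 reads, and was 2.46-fold lower at 3Ws (1.29 to 4.96). Trpc6, a calcium-permeable channel, had 5, 4 and 0 reads, too few for a fold. Gng11, a G protein γ subunit, stood at 4.46, 5.26 and 0.956 FPKM, from 71, 80 and 15 reads, and was 4.67-fold lower at 3Ws (2.65 to 8.77). Rgs18, a regulator of G protein signaling abundant in megakaryocytes and also expressed in other blood cells, was level by comparison. It stood at 35.6, 40.9 and 39.4 FPKM and was 1.15-fold higher at 2Ws (1.06 to 1.24) and 1.11-fold higher at 3Ws (1.02 to 1.20).

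The largest fold among the members was that of Nrgn, neurogranin, a calmodulin-binding protein known from neurons and present in platelets (chr9:37544492-37552904). It stood at 9.53, 11.02 and 1.01 FPKM in the normal, 2Ws and 3Ws libraries, from 240, 265 and 25 reads. At 3Ws its level was 9.46-fold below that in normal mice (6.26 to 14.9) and 10.9-fold lower than at 2Ws (7.25 to 17.2). Alox12, the platelet 12-lipoxygenase, stood at 2.06, 4.11 and 0.559 FPKM, from 146, 278 and 39 reads. It was 1.99-fold higher at 2Ws (1.63 to 2.45) and 3.69-fold lower at 3Ws (2.58 to 5.40). Rab27b, a small GTPase of dense granule secretion, had 33, 36 and 5 reads and was 6.50-fold lower at 3Ws (2.52 to 21.3).

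Ctla2a and Snn complete the set. Ctla2a, a cysteine protease inhibitor in the mouse, stood at 15.7, 20.02 and 3.07 FPKM, was 1.27-fold higher at 2Ws (1.14 to 1.43) and was 5.10-fold lower at 3Ws (4.15 to 6.30). Reads may be split with its close copy Ctla2b, which stood at 4.53, 4.43 and 1.48 FPKM. Snn, stannin, a small membrane protein, stood at 12.3, 18.2 and 2.93 FPKM, and was 1.49-fold higher at 2Ws (1.34 to 1.65) and 4.20-fold lower at 3Ws (3.50 to 5.05). For Ctla2a, F13a1, Gp1bb, Gp5, Snn and Treml1 the read numbers are approximate, since their recovered reads were not whole numbers.

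Other genes of platelets and their precursors, 70 on a list of which 69 were found, moved less. Their median log2 ratio was 0.12 at 2Ws, -0.19 at 3Ws and -0.32 at 3Ws against 2Ws. Over all genes compared the medians were 0.00045, -0.24 and -0.21, so at 3Ws the median of this list lay near that of all genes. The interval of the read ratio at 2Ws lay above 1 for 30 of the 69, beside 11.1% of genes, and below 1 for 7, beside 10.9%. At 3Ws against normal mice it lay below 1 for 37, beside 34.5%, and above 1 for 11, beside 9.51%. At 3Ws against 2Ws it lay below 1 for 46, beside 34%, and above 1 for 8, beside 8.36%. The levels allowed a call for 44, 39 and 45 of the 69. By the 2-fold rule 0 were higher or lower at 2Ws, beside 1.29% and 1.22% of all genes compared. At 3Ws than at 2Ws 7 were lower, beside 7.37%. At 3Ws against normal mice 6 were lower, beside 7.89%, and 1 was higher, beside 2.6%. The 6 were F5, clotting factor V (39.7, 53.3 and 17.6 FPKM), Cd36, a scavenger and thrombospondin receptor (21.6, 18.3 and 7.81), Itga6, a laminin-binding integrin chain (17.1, 21.3 and 4.82), Ltbp1 (7.16, 11.1 and 1.503) and, chosen after their values were seen, Parvb (5.91, 6.21 and 1.47) and Clu (2.25, 3.30 and 0.596). P2ry1, the second ADP receptor of platelets and the gene that was higher, stood at 2.73, 3.22 and 7.38 FPKM and was also named after its values were seen. Both ADP receptors, P2ry12 and P2ry1, were thus highest at 3Ws. The genes of highest level on this list are shared with other leukocytes and were not lower at 3Ws: Srgn stood at 678, 724 and 1129 FPKM and Fcer1g at 479, 457 and 523.

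Of the transcription factors of megakaryocytes on that list, Gata1 stood at 0.473, 1.51 and 0.144 FPKM. Gfi1b stood at 0.820, 1.19 and 0.320 FPKM, so both were above 1 FPKM at 2Ws and below it in the other libraries. Nfe2, which is also used in neutrophils and erythroid cells, was level at 76.2, 79.3 and 77.8 FPKM. These genes were named after their values were seen.

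The libraries held 17325746, 16549247 and 17075753 reads (normal, 2Ws and 3Ws), as recovered from the FPKM and exon lengths. Neutrophil genes were abundant, with 16 markers summing to 46389, 50723 and 69832 FPKM of 314835, 312310 and 320932 in all. Ly6g, the antigen used to take the cells, stood at 125, 114 and 190 FPKM and S100a9 at 24594, 27455 and 37319. These markers did not all move alike. By the 2-fold rule 0 of the 16 were higher and 1 was lower at 2Ws, beside 1.29% and 1.22% of genes. At 3Ws against normal mice 3 were higher and 3 lower, beside 2.6% and 7.89%. The 2Ws library stood apart in Xist, the transcript of the inactive X chromosome of female cells, with 3, 7339 and 0 reads, while the study's methods give female mice for the tumors. No member lies on chromosome X or Y. The normal and 3Ws libraries were alike in Xist. In comparisons with the 2Ws library a part of sex in the members' values cannot be told apart from tumor time. The median gene present in both libraries was at a log2 ratio of -0.18 between 3Ws and normal mice and -0.16 between 3Ws and 2Ws, and 11 of the 13 members counted as lower at 3Ws were so relative to that shift, without Gp9 and Selp, as were 16 of the 17 counted as lower than at 2Ws, without F13a1.

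Markers of some other blood cells, but not of all, moved at the same times. Over all genes compared, 1.29% were higher and 1.22% lower at 2Ws, and 2.6% and 7.89% at 3Ws. Of 18 B cell markers, 0 differed by 2-fold at 2Ws and 14 were lower at 3Ws, with medians of 0.36 and -1.65 and sums of 738, 916 and 295 FPKM. The B cell receptor chain gene Cd79a stood at 68.2, 94.2 and 13.3 FPKM. Of 24 monocyte and macrophage markers, 5 were lower at 2Ws and 17 at 3Ws, with medians of -0.42 and -1.41 and sums of 1339, 1049 and 593 FPKM. The monocyte receptor gene Ccr2 stood at 29.2, 17.5 and 6.29 FPKM. Of 9 eosinophil markers, 2 were higher at 2Ws and 4 lower at 3Ws, with medians of 0.36 and -0.93 and sums of 233, 304 and 86.2 FPKM. At 2Ws the interval lay above 1 for 16 B cell, 6 eosinophil and 2 monocyte and macrophage markers, beside 11.1% of genes. It lay below 1 for 0, 0 and 18 in that order, beside 10.9%. No marker on these lists of B cells, monocytes and macrophages, and eosinophils was at 0 in any library, although Epx, eosinophil peroxidase, stood at 0.105, 0.0662 and 0.0428 FPKM. Of 17 T cell markers, 2 were higher at 2Ws and 0 were higher or lower at 3Ws (medians 0.28 and -0.03), with sums of 10.8, 21.3 and 9.96 FPKM. The levels allowed a call for only 8 and 5 of the 17. The interval at 2Ws lay above 1 for 10 of the 17 and below 1 for 0. At 3Ws against 2Ws the interval lay below 1 for 12 of them, beside 34% of genes. Of 11 NK cell markers 0 were higher or lower at either time (medians -0.10 and 0.14), but the levels allowed a call for only 4 at each time. Of 10 dendritic cell markers, 1 was lower at 2Ws, and 2 were lower and 1 higher at 3Ws (medians -0.06 and -0.56). Of 8 basophil and mast cell markers, 1 was lower at 2Ws and 2 at 3Ws (medians -0.40 and -0.93).

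Endothelial markers were mostly near or at 0, with sums of 13.2, 4.94 and 3.82 FPKM. A part of endothelium in the values of Selp, Vwf and Mmrn1 was not tested. Of 15, 2 reached 1 FPKM (Lyve1, also on the macrophage list, and Eng), and the defining marker Cdh5 stood at 0.151, 0.101 and 0.0418 FPKM. Emcn, Tie1 and Robo4 were at 0 in normal mice and at 3Ws. Of 13 erythroid markers, 2 were lower and 0 higher at 2Ws, and 4 were higher and 0 lower at 3Ws. Their sums were 20.98, 9.23 and 97.8 FPKM, and the levels allowed a call for only 4 at each time. The part of B cells, monocytes, macrophages and eosinophils in the values of members that they share with platelets was not tested. Of the 12 members not on the list of other cells, 9 had an interval below 1 between 3Ws and normal mice and 12 between 3Ws and 2Ws, beside the 34.5% and 34% of all genes given above, and Gp1bb with its shared exons is among the 12.

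**Figure D3:**
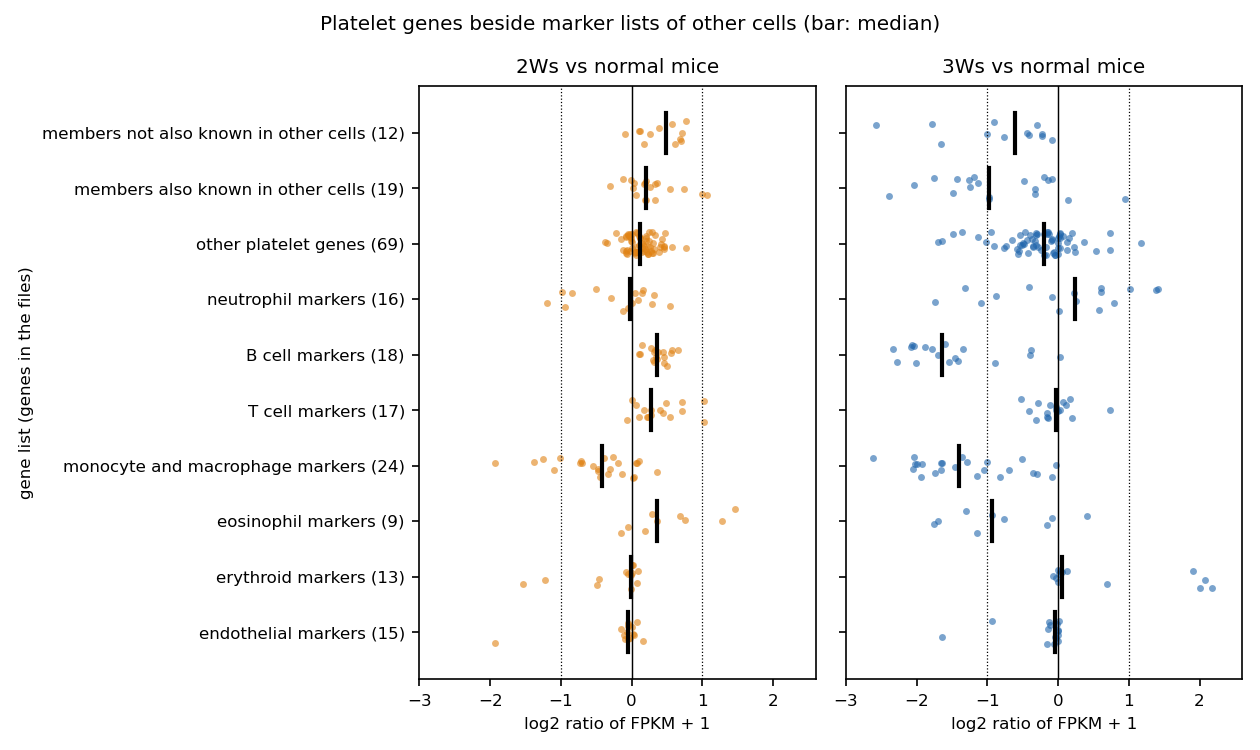
Log2 ratios of FPKM + 1 against normal mice at 2Ws (left) and 3Ws (right) for the members, for other platelet genes and for marker lists of other cells. Members are split by whether they are on the list of 19 also known in other cells. Each point is a gene, the bar is the median, and dotted lines mark 2-fold. At 3Ws the medians of both groups of members (-0.60 and -0.98) lie to the left of that of the other platelet genes (-0.19), B cell (-1.65) and monocyte and macrophage markers (-1.41) lie further left, and neutrophil markers lie at 0.23.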

How the data were processed

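Per the submitters' processing notes, reads were mapped on GRCm38 by HISAT2 (2.1.0) after Bowtie2 (2.2.3) had built the index, and the authors deposited FPKM per Ensembl gene. Annotation release and strand setting were not given in the sources used here. No aligned reads or counts were used. Genes were named and their exon lengths taken from GENCODE M21 (26565 of 26655 named). FPKM was multiplied by exon length and by the library total that makes the products whole to recover reads, which held in all 3 libraries for 88.2% of genes above 0 (within 0.001) and for 25 of 31 members. A gene can be counted in more than 1 overlapping model, and the reads summed over genes come to 105.7% to 105.9% of the totals.

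The members and lists were chosen with earlier results of these data known. All members were named. Of the other lists, genes were named among the 3 with the highest mean FPKM and those past the 2-fold rule at 3Ws with at least 10 FPKM in 1 library, with Actb, Xist and Ly6g as checks, and other names were chosen after their values were seen. Ratios used a pseudocount of 1 FPKM. The alternatives changed the pseudocount (0.1 or 0.5), the filter (none or 5 FPKM), the rule (1.5-fold or 4-fold) or the list (only the 12 members). Others changed the scaling (centring on the median gene, values relative to Actb, or leaving hemoglobin, immunoglobulin and mitochondrial genes out of the total). A further alternative laid an exact binomial test on reads, with Benjamini-Hochberg adjustment, over the 2-fold rule. Steps were run in Python 3.11.15 (pandas 2.3.3, numpy 2.4.6, scipy 1.17.1, matplotlib 3.10.9) and tested on simulated data.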

Additional observations from a re-analysis of the deposited data

Results flagged for a closer look

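Myl9, the myosin light chain, moved past the 2-fold limit in opposite directions at the 2 tumor times. Its log2 ratio of FPKM + 1 against normal mice was 1.07 at 2Ws and -1.25 at 3Ws, and -2.31 at 3Ws against 2Ws. No test of the difference between the times against the spread between mice was possible, since each time has 1 library.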

How the results depend on the processing

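The 2-fold count of 1 member higher at 2Ws became 8 with a 1.5-fold rule, 0 with a 4-fold rule, 4 with a pseudocount of 0.1, and 2 with a pseudocount of 0.5, relative to Actb, or with FPKM rescaled without hemoglobin, immunoglobulin and mitochondrial genes. With ratios of reads and no pseudocount, an alternative chosen after seeing the data, it was 5. The counts lower at 3Ws fell to 3 of 13 against normal mice and to 7 of 17 against 2Ws with a 4-fold rule. They became 17 and 20 with pseudocounts of 0.1 or 0.5 or a 1.5-fold rule, 18 and 22 with ratios of reads, 10 and 15 with the 5 FPKM filter, and 11 and 16 after centring, which ended the calls of Gp9 and Selp against normal mice and of F13a1 against 2Ws. Relative to Actb they were 12, without Gp9, and 17. P2ry12 made the count higher at 3Ws against normal mice 1 with a 1.5-fold rule, after centring and relative to Actb, and that against 2Ws 1 with a 1.5-fold rule and after centring. The median log2 ratio of the members at 2Ws was 0.48 with only the 12 members not on the list of other cells, and that at 3Ws against normal mice was -1.39 with a pseudocount of 0.1. The exact binomial test on reads was laid over the 2-fold rule and so could only remove calls. It removed none of the 1, 13 and 17. Of the log2 ratios of members under the alternatives, 430 stayed within their counting interval and 35 moved beyond it. The sign changed for Gp1ba (-0.09 to 0.09), Sparc and Trpc6 at 3Ws against normal mice and for Rgs18 and Trpc6 at 3Ws against 2Ws after centring, and for Pf4 at 2Ws relative to Actb, all of them short of 2-fold. Dropping the filter on low values changes no call at a pseudocount of 1, by construction, and members with whole reads alone, also chosen after seeing the data, gave 1, 10 and 13.

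Over all genes, 145 higher and 137 lower at 2Ws became 275 and 263 with a pseudocount of 0.1, 396 and 374 with the 1.5-fold rule, 12 and 15 with the 4-fold rule, 40 and 45 with the 5 FPKM filter, 74 and 114 by ratios of reads and 42 and 53 by the exact test. At 3Ws against normal mice, 289 and 876 became 459 and 1943, 714 and 2622, 39 and 66, 180 and 499, 280 and 2066, and 210 and 791 in that order, and 374 and 1371 with a pseudocount of 0.5. At 3Ws against 2Ws, 222 and 820 became 357 and 1763, 565 and 2307, 28 and 92, 137 and 431, 217 and 1795, and 164 and 731, and 282 and 1249 with a pseudocount of 0.5.

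No paired analysis was possible because each condition has 1 library, and leaving out a replicate was not run. Depth limits the members with few reads at 3Ws (Rab27b, Gp6, Treml1, Mmrn1 and Trpc6).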

Other observations

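P2ry12, the member highest at 3Ws, lies on chromosome 3 inside Med12l, a gene of the opposite strand, and the values around it were looked at after its own value was seen. Med12l stood at 1.93, 2.19 and 4.52 FPKM in the normal, 2Ws and 3Ws libraries, and 9 of its exonic bases (0.353% of those of P2ry12) are shared. The neighbouring purine receptor genes differed from each other. P2ry13, the most abundant, stood at 81.4, 85.2 and 125 FPKM and was 1.54-fold higher at 3Ws than in normal mice (counting interval 1.48 to 1.61). P2ry14 stood at 0.381, 0.645 and 0.0794 FPKM, from 73, 118 and 15 reads, and was 4.80-fold lower (2.73 to 9.004). Gpr171 stood at 1.22, 1.17 and 0.526 FPKM and was 2.32-fold lower (1.35 to 4.13).

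Near Pf4 and Ppbp on chromosome 5, the neutrophil chemokine gene Cxcl3 had 1, 5 and 44 reads in that order of libraries. Cxcl5 had 1 read in each library, and Cxcl15 had 0, 1 and 0 reads. The low level of Pf4 and Ppbp at 3Ws was therefore not shared by Cxcl3.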
